A study of Homo sapiens with 6 samples.

Results

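The core transcription factors of hepatocytes were followed through 6 RNA-seq libraries of the hepatocellular carcinoma line PLC/PRF/5. The set holds 8 genes chosen by symbol, HNF4A, HNF4G, FOXA1, FOXA2, FOXA3, CEBPA, ONECUT1 and ONECUT2, out of 24432 symbols in each library, and all 8 were listed. The 3 resistant libraries, labelled with the genotype Lenvatinib resistant and the treatment Lenvatinib, came from cells grown in rising doses of this kinase inhibitor. The 3 sensitive libraries, labelled WT and control, came from the same named line. Lenvatinib was begun at 20 µmol/L and raised by 0.5 mmol/L at a time until 40 mmol/L, as the labels write it, although the first unit differs from the others. Only resistant cells carry the drug label, so resistance and exposure cannot be told apart here. Whether the resistant cells were a clone, and whether replicates were separate cultures, is not stated, and p-values then measure only the spread between these libraries, which may be technical.

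These factors form the network that makes a cell a hepatocyte. HNF4A and HNF4G are nuclear receptors that bind direct repeats in the promoters of liver genes, and HNF4A is required for most hepatocyte functions. FOXA1, FOXA2 and FOXA3 carry a forkhead domain, and FOXA1 and FOXA2 are pioneer factors that can open closed chromatin at liver enhancers. CEBPA is a leucine zipper factor of mature hepatocytes that restrains proliferation, and ONECUT1 (HNF6) and ONECUT2 carry a cut domain and a homeodomain and act in liver and bile duct development. In the adult liver the factors bind each other's regulatory regions.

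HNF4A is read from 2 promoters. The promoter windows below were searched for the letters of known partner motifs and of the TATA box. They cover the start sites of the member with the lowest remaining level and of 2 members that differ in how much remained. Each window runs from 250 bases before to 50 bases after a start site, 5′ to 3′ on the strand of the gene, from RefSeq on build GRCh38.p14. Of the 8 factors 6 have a window in that table, and those of HNF4A, FOXA1, FOXA3, CEBPA, ONECUT1 and ONECUT2 were searched. The letters searched on both strands were ATCAAT for ONECUT factors, TGTTTNC for forkhead factors, CAAAGTCCA for HNF4 and TTGCNNAA for C/EBP, and TATAAA was searched on the gene strand. Capitals mark the matches.
HNF4A upstream promoter, chr20:44355449-44355748, plus strand: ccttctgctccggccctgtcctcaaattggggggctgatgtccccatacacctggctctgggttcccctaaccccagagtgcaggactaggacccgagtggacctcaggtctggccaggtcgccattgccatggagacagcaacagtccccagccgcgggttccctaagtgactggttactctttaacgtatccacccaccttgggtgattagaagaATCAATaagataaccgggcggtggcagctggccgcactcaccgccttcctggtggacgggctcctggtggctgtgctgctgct
HNF4A downstream promoter, chr20:44400989-44401288, plus strand: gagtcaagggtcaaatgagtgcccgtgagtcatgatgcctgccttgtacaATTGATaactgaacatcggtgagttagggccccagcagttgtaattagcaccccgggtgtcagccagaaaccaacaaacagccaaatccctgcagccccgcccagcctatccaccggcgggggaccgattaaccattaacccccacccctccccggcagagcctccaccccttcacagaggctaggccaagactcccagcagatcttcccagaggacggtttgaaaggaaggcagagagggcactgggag
FOXA3 promoter, chr19:45864076-45864375, plus strand: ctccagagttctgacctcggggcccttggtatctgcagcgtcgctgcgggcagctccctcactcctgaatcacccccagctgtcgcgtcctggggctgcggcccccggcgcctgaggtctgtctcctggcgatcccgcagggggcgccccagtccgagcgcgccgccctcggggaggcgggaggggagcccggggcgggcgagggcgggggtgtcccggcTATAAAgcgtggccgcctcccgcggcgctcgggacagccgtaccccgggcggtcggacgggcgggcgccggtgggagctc
CEBPA promoter, chr19:33302485-33302784, minus strand: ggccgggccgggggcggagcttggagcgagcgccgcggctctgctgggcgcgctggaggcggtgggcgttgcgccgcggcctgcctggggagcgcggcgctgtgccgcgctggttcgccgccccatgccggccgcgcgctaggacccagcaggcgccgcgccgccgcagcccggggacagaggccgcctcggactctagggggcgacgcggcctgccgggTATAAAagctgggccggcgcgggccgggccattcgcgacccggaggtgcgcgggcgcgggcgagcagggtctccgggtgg

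The upstream HNF4A window held 1 ONECUT match, at 33 to 28 bases before the start. The downstream window held 1 as well, on the other strand, at positions -200 to -195 from the start. Of 35116 windows of the same length, 6.26% held the ONECUT letters. FOXA3 and CEBPA each held TATAAA at 30 to 25 bases before the start, as did 7.33% of all windows anywhere in their length. FOXA1 held 1 forkhead match, as did 6318 of the 35116 windows at least once. No window of the 6 factors held the HNF4 letters (0.384% of all windows) or the C/EBP letters (10.5%), and those of ONECUT1 and ONECUT2 held no match. The windows differed in CpG content. CEBPA had 50 CpG pairs, ONECUT1 39, FOXA3 37, FOXA1 34 and ONECUT2 24, whereas the HNF4A windows had 11 and 9, against a median of 14 over all windows. The deposited values are per gene, so which HNF4A promoter was in use was not measured.

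The libraries gave 1 value per gene in FPKM, a level scaled to transcript length and to sequencing depth. Depth differed by at most 3.46% between libraries, as read from the spacing of low values. Tested genes correlated across libraries at 0.9939 to 0.996 among the resistant replicates and 0.9515 to 0.9947 among the sensitive ones (Pearson's r on log2(FPKM + 1), across genes, which are not independent), and sensitive replicate 3 stood farthest from its group. Between the groups r was 0.6796 to 0.7064, and whether both groups are the same line was not tested. The hepatocyte label of the line was checked on 10 markers. Their summed level was 11.8 to 29.9 FPKM in resistant and 3290 to 3401 FPKM in sensitive libraries, so the resistant libraries were nearly without the markers that define the labelled cell type. In bulk RNA, fewer cells that express a gene and less of its RNA per cell cannot be told apart. Of the leukocyte markers, PTPRC was at 0 in all 6 libraries, but LYZ and CD68 averaged 242 and 14.1 FPKM in sensitive cells. No fibroblast or endothelial marker in the files reached the filter used for testing. The leukocyte and cholangiocyte lists are given further on.

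Every factor of the set stood lower in resistant cells, and every resistant library lay below every sensitive one for 8 of 8 factors. The same held for 35.1% of all tested genes, a set that does not include HNF4G and ONECUT2. Of the tested genes 67.7% were called in either direction. A gene was tested when it reached 1 FPKM in at least 3 libraries, and 6 of the 8 factors did. All 6 were called lower, as were 32.5% of the 11694 genes tested, where a call is a limma p below 0.05 after Benjamini-Hochberg adjustment over all of them. HNF4A, FOXA1, FOXA2, FOXA3 and ONECUT1 were under 1 FPKM in every resistant library and were tested only because of their sensitive values. This fixed both their direction and their lack of overlap, so the counts of 6 called and of 8 without overlap are descriptions only. CEBPA passed in both groups, and of the 9888 genes that reached 1 FPKM in a library of each group 29.7% were called lower. Fold changes are resistant minus sensitive on log2(FPKM + 1), a scale that understates the change of genes at low values.

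**Figure D1:**
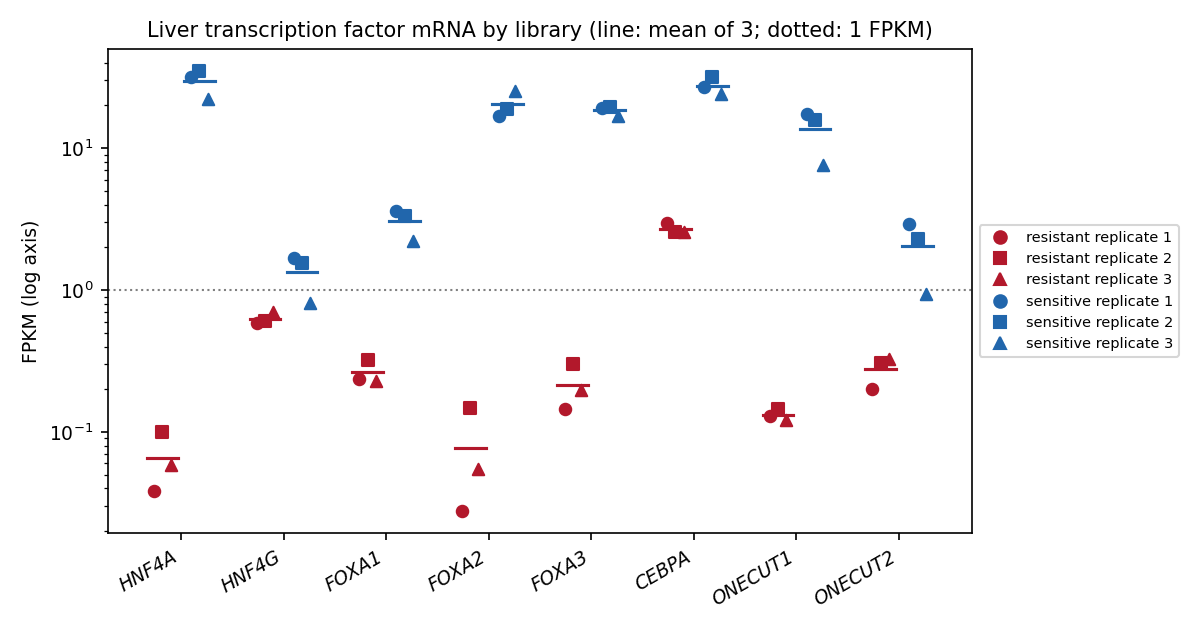
FPKM of the 8 factors on a log axis, with 1 point per library, resistant in red left of sensitive in blue, the group mean as a bar and 1 FPKM as a dotted line. No resistant point reaches a sensitive point of the same gene, and CEBPA alone stays above 1 FPKM in the resistant libraries.

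HNF4A, the nuclear receptor at the centre of the network, was at 0.0381, 0.0999 and 0.0585 FPKM in resistant replicates 1, 2 and 3, against 31.95, 34.8 and 22.2 FPKM in sensitive replicates 1, 2 and 3. The resistant libraries were near the limit of detection and the sensitive ones all above 20 FPKM. It fell by 4.82 on the log2 scale (SE 0.181, limma, Benjamini-Hochberg adjusted p = 1.38e-06). The mean was 0.0655 ± 0.0315 FPKM in resistant and 29.7 ± 6.59 FPKM in sensitive cells (SD, n = 3 libraries each, here and below). Its paralog HNF4G, which binds the same kind of site, behaved differently in size. HNF4G was at 0.586, 0.603 and 0.699 FPKM in the resistant and at 1.68, 1.545 and 0.810 FPKM in the sensitive libraries. The groups did not overlap, but resistant replicate 3 and sensitive replicate 3 were close. HNF4G was below the filter, with a log2 difference of -0.51, or -0.93 with a pseudocount of 0.1 in place of 1, and when all genes were tested without a filter its adjusted p was 0.0554 in limma. HNF4A exceeded HNF4G by 19.0, 22.5 and 27.5 times in the sensitive libraries, whereas in the resistant libraries the ratio of HNF4A to HNF4G was 0.0651, 0.166 and 0.0837, so that the order of the pair was opposite in the groups.

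The forkhead factors did not keep their proportions. FOXA2, needed with FOXA1 for the liver to form, was at 0.0278, 0.1475 and 0.0552 FPKM in the resistant and 16.8, 18.9 and 25.4 FPKM in the sensitive libraries. Unlike the other factors, it was highest in sensitive replicate 3. FOXA2 fell by 4.29 on the log2 scale (SE 0.170, adjusted p = 1.75e-06 in limma). FOXA3, which in mice sustains glucose transporter and other hepatocyte genes, was at 0.146, 0.304 and 0.198 FPKM in the resistant and 19.3, 19.5 and 16.8 FPKM in the sensitive libraries. It was the steadiest of the set among sensitive libraries and fell by 4.004 (SE 0.121, adjusted p = 6.74e-07 in limma). FOXA1 was already low in sensitive cells, at 3.60, 3.34 and 2.20 FPKM, and stood at 0.238, 0.3195 and 0.230 FPKM in resistant cells. It fell by 1.66 (SE 0.150, adjusted p = 7.47e-05 in limma), or by 3.10 with a pseudocount of 0.1.

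The summed FOXA level was 0.555 ± 0.190 FPKM in resistant and 41.9 ± 2.37 FPKM in sensitive cells. FOXA1 made up 57.8%, 41.5% and 47.7% of that sum in resistant replicates 1, 2 and 3, against 9.08%, 8.01% and 4.96% in the sensitive ones. FOXA2 made up 12.4% ± 6.26 in resistant and 48.3% ± 7.92 in sensitive libraries. The groups did not overlap for FOXA1 or FOXA2, and an exact two-sided permutation test gave p = 0.1 for each, the smallest that 3 against 3 libraries allow. FOXA3 made up 35.5%, 39.4% and 40.9% of the sum in the resistant libraries, against 48.6%, 46.6% and 37.8% in the sensitive ones, and these shares overlapped (exact permutation p = 0.3). In resistant replicate 2 the shares of FOXA1 and FOXA3 were close, and each FOXA level was under 1 FPKM in every resistant library.

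**Figure D2:**
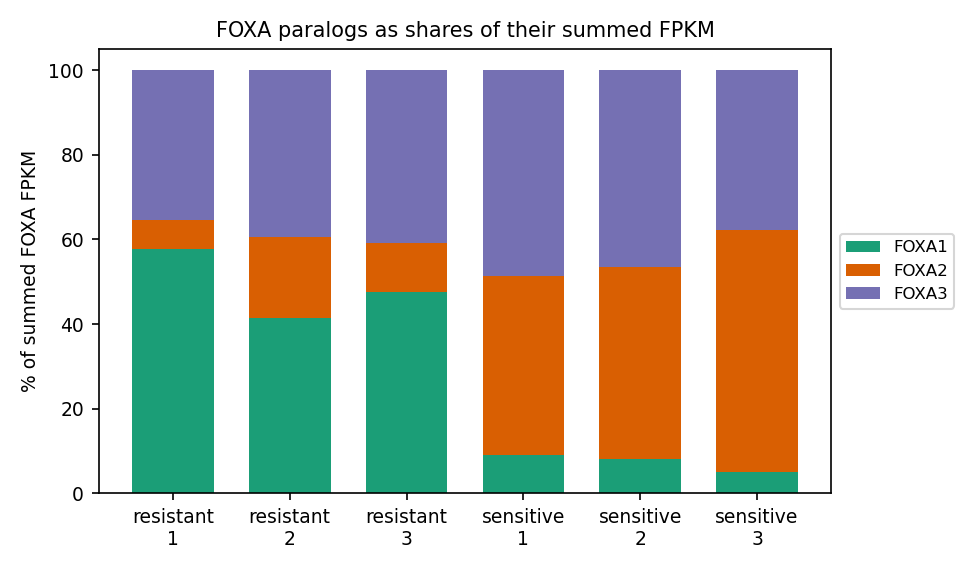
Stacked bars give FOXA1, FOXA2 and FOXA3 as percent of their summed FPKM in each library, resistant left and sensitive right. FOXA1 covers 41.5% to 57.8% of the resistant bars and at most 9.08% of the sensitive bars.

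CEBPA, the leucine zipper factor of mature hepatocytes, was at 2.97, 2.58 and 2.55 FPKM in the resistant and 26.75, 31.5 and 24.05 FPKM in the sensitive libraries. It was the only factor of the set above 1 FPKM in a resistant library, and it was so in all 3. CEBPA fell by 2.94 on the log2 scale (SE 0.136, adjusted p = 3.31e-06 in limma). It supplied 62.0% ± 5.84 of the summed FPKM of the 8 factors in resistant cells, against 23.6% ± 1.28 in sensitive cells. That sum itself was 4.36 ± 0.129 FPKM in resistant and 116 ± 14.3 FPKM in sensitive cells.

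ONECUT1, which regulates HNF4A in the developing mouse liver, was at 0.129, 0.146 and 0.122 FPKM in the resistant and 17.5, 15.7 and 7.59 FPKM in the sensitive libraries. Sensitive replicate 3 held the lowest of the sensitive values but remained far above the resistant ones. ONECUT1 fell by 3.61 (SE 0.284, adjusted p = 3.83e-05 in limma). ONECUT2 was at 0.201, 0.304 and 0.329 FPKM in the resistant and 2.92, 2.29 and 0.944 FPKM in the sensitive libraries, again lowest in sensitive replicate 3. It missed the filter in that library, with a log2 difference of -1.20, or -2.39 with a pseudocount of 0.1, and with no filter on low values it was called lower (adjusted p = 0.0146 in limma). ONECUT1 was the higher of the pair in the sensitive libraries, by 5.99, 6.84 and 8.04 times, and the lower in the resistant ones, where its ratio to ONECUT2 was 0.644, 0.479 and 0.372. The same reversal of order was seen for HNF4A and HNF4G.

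The order of the 8 levels differed between the groups. In resistant cells the means ran from CEBPA (2.70 FPKM) through HNF4G (0.629), ONECUT2 (0.278), FOXA1 (0.263), FOXA3 (0.216), ONECUT1 (0.132) and FOXA2 (0.0769) to HNF4A (0.0655). In sensitive cells they ran from HNF4A (29.7 FPKM) through CEBPA (27.4), FOXA2 (20.4), FOXA3 (18.5), ONECUT1 (13.6), FOXA1 (3.05) and ONECUT2 (2.05) to HNF4G (1.35). HNF4A was thus highest of the set in sensitive and lowest in resistant cells. Among neighbours in the resistant order, CEBPA and HNF4G, HNF4G and ONECUT2, and FOXA3 and ONECUT1 did not overlap between libraries, and the other neighbours did. In the sensitive order the only neighbours without overlap were ONECUT1 and FOXA1.

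Relative to the sensitive mean, the factors fell into a range of remaining levels. Resistant cells kept 0.221% ± 0.106 of the HNF4A level, 0.377% ± 0.308 of FOXA2, 0.975% ± 0.0891 of ONECUT1 and 1.17% ± 0.434 of FOXA3. They kept 8.62% ± 1.62 of FOXA1, 9.85% ± 0.855 of CEBPA, 13.5% ± 3.32 of ONECUT2 and 46.7% ± 4.52 of HNF4G. Of 4878 genes with a sensitive mean of at least 10 FPKM, 2.69% kept at most 1% and 5.68% kept at most 10%, and the median gene kept 78.0%. HNF4A, FOXA2 and ONECUT1 belonged to those that kept at most 1%, with ONECUT1 near that limit at 0.95%, 1.07% and 0.9% in resistant replicates 1, 2 and 3. All of these, FOXA3 and CEBPA belonged to those that kept at most 10%. CEBPA was near that limit, at 10.8%, 9.39% and 9.31% in resistant replicates 1, 2 and 3. The factors with the highest remaining share were those with low sensitive levels, except CEBPA.

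**Figure D3:**
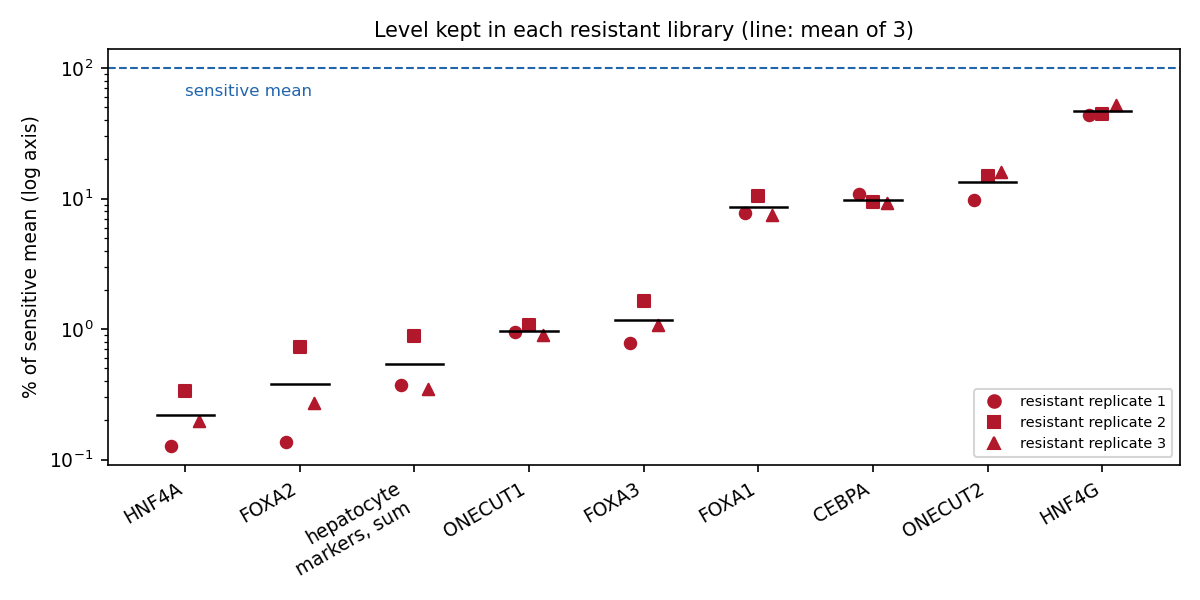
Level in each resistant library as percent of the sensitive mean, on a log axis, for the 8 factors and for the summed FPKM of 10 hepatocyte markers, with the mean of 3 as a bar and the sensitive mean at 100% as a dashed line. Factors run from HNF4A at 0.221% to HNF4G at 46.7%, and resistant replicate 2, drawn as squares, is the highest point for HNF4A, FOXA2, FOXA3, FOXA1, ONECUT1 and the marker sum.

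Few units of signal remained for HNF4A, FOXA2, FOXA3 and ONECUT1. The values of each factor were whole multiples of a step that was the same in all libraries after a correction for depth, and a step would be 1 read or fragment if whole ones were counted. HNF4A held 11, 29 and 17 such steps in resistant replicates 1, 2 and 3, against 9340, 10294 and 6355 in sensitive replicates 1, 2 and 3. FOXA2 held 3, 16 and 6 steps in the resistant libraries, FOXA3 11, 23 and 15, ONECUT1 22, 25 and 21, and FOXA1 40, 54 and 39. The 95% Poisson intervals take a step as 1 read and cover counting error only. For FOXA2 they ran from 0.62 to 8.77 in resistant replicate 1 and from 9.15 to 25.98 in resistant replicate 2. On that reading these libraries differed beyond counting error, with no allowance for the number of factors and library pairs compared. For HNF4A the intervals of those libraries were 5.49 to 19.68 and 19.42 to 41.65 and barely met, which does not show that the libraries were alike. CEBPA held 306, 267 and 265 steps in the resistant libraries and HNF4G 114, 118 and 137. ONECUT2 held 129, 197 and 213, and the interval of resistant replicate 1, 107.7 to 153.28, lay below those of replicate 2, 170.45 to 226.51, and replicate 3, 185.35 to 243.61.

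Resistant replicate 2 was the highest resistant library for 5 of the 8 factors. Its level was 3.55 times the mean of the other resistant libraries for FOXA2, 2.07 times for HNF4A, 1.77 for FOXA3, 1.36 for FOXA1, 1.16 for ONECUT1 and 1.15 for ONECUT2. It was 0.933 times for CEBPA and 0.938 times for HNF4G. The summed hepatocyte markers, mostly SERPINA1, moved with this. Resistant replicates 1, 2 and 3 kept 0.376%, 0.888% and 0.351% of the sensitive sum, a ratio of 2.44 for replicate 2. Its part in the residual levels of HNF4A, FOXA2 and FOXA3 was not tested. Sensitive replicate 3 was the lowest sensitive library for 7 of the 8 factors, all but FOXA2.

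Of 6 relatives outside the set, 5 C/EBP genes and ONECUT3, 4 were tested. Of these, 3 were called higher, none lower and 1 did not pass, where 35.2% of all tested genes were called higher. CEBPB, a C/EBP factor of the acute phase and inflammatory response, was at 191, 170 and 166 FPKM in the resistant and 47.7, 51.9 and 130 FPKM in the sensitive libraries, so sensitive replicate 3 stood between the other sensitive libraries and the resistant ones. CEBPB rose by 1.34 on the log2 scale (SE 0.364, adjusted p = 0.0146 in limma), and the call was lost without resistant replicate 1 (adjusted p = 0.0533 in limma) or sensitive replicate 2 (0.0509). CEBPG, a dimer partner of other C/EBP factors, rose by 1.49 to 57.2 ± 2.05 FPKM in resistant cells, against 19.8 ± 2.97 FPKM in sensitive cells (adjusted p = 5.45e-05 in limma). DDIT3 (CHOP), the stress-induced member, was at 275, 258.5 and 214 FPKM in the resistant and 33.6, 37.1 and 167 FPKM in the sensitive libraries, where replicate 3 made up most of the sensitive mean, and rose by 2.04 (adjusted p = 0.0177 in limma), a call that was lost without resistant replicate 1, resistant replicate 2 or sensitive replicate 2 (adjusted p = 0.06, 0.0551 and 0.059 in limma). CEBPD did not pass, at 6.89 ± 0.364 FPKM in resistant and 10.2 ± 3.25 FPKM in sensitive cells, and CEBPE was at 0 in all libraries. ONECUT3 was below the filter, at 0.0118 ± 0.00737 FPKM in resistant and 0.453 ± 0.260 FPKM in sensitive cells, with no overlap. The ratio of CEBPB to CEBPA was 64.3, 65.9 and 65.2 in the resistant libraries, against 1.78, 1.65 and 5.4 in the sensitive libraries, with sensitive replicate 3 apart from the other two.

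Of 14 tested other liver-enriched factors, out of 17 in the files, 9 were called lower, 3 higher and 2 did not pass, with a median log2 fold change of -1.65, against 0.08 over all tested genes. Of these 14, 7 were tested because of their sensitive values alone. Over all tested genes 32.5% were called lower and 35.2% higher. CREB3L3, a membrane-bound factor of fasting metabolism, was at 0.223 ± 0.148 FPKM in resistant and 42.7 ± 7.86 FPKM in sensitive cells (log2 fold change -5.15). GATA4, a zinc finger factor of foregut endoderm, was at 0.0466 ± 0.0528 FPKM and 19.2 ± 2.92 FPKM (-4.26). TBX3 was at 0.127 ± 0.0319 FPKM in resistant and 20.5 ± 1.47 FPKM in sensitive cells (-4.25). The 3 that rose, named after their values were seen, were ATF5 (2.09), GATA6 (0.46) and RXRA (0.43), and the calls of GATA6 and RXRA were lost in 6 of the alternatives each, among them the omission of any resistant replicate.

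**Figure D4:**
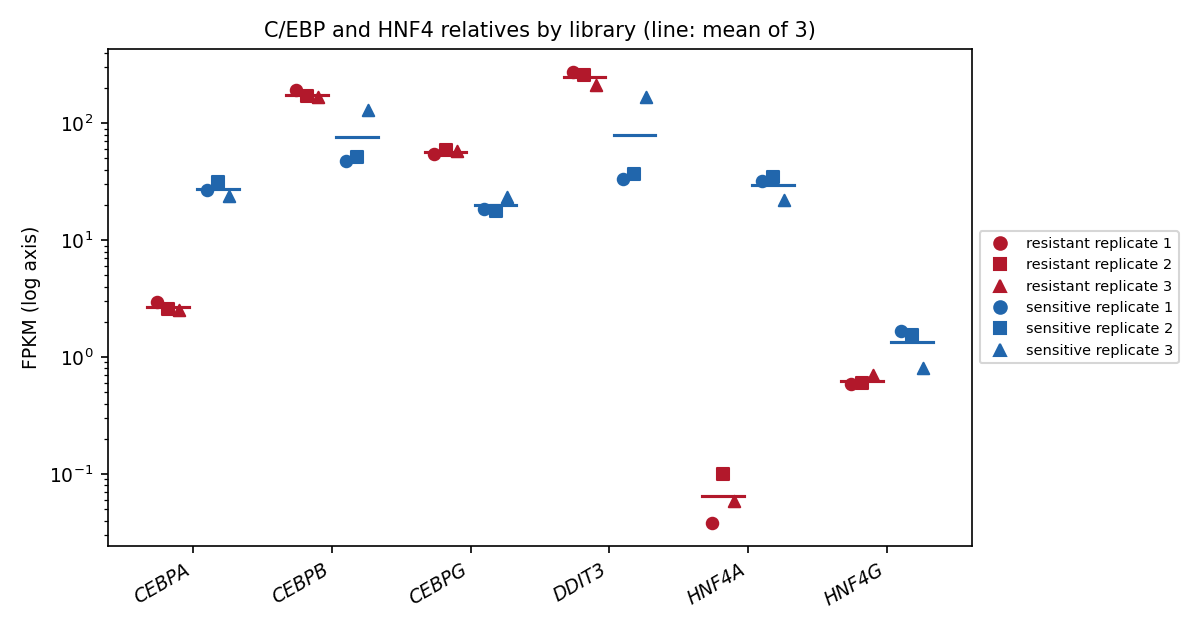
FPKM by library on a log axis for CEBPA, CEBPB, CEBPG, DDIT3, HNF4A and HNF4G, resistant in red left of sensitive in blue, with group means as bars. Every resistant point of CEBPB, CEBPG and DDIT3 lies above the sensitive points of the same gene, and every resistant point of CEBPA, HNF4A and HNF4G lies below them.

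Of 7 tested coactivators through which these factors work, 4 were called higher, 1 lower and 2 did not pass, with a median of 0.69, where 35.2% of all tested genes were called higher. The call of NCOA2, one of the 4, was lost in 7 of 12 alternatives (adjusted p up to 0.11 in limma). The acetyltransferases CREBBP and EP300 rose by 1.09 and 0.91, and the Mediator subunit MED1 by 1.08, to 21.8 ± 1.95 FPKM in resistant cells, against 10.1 ± 3.49 FPKM in sensitive cells. PPARGC1A, which coactivates HNF4A in gluconeogenesis, was at 0.0452 ± 0.0233 FPKM in resistant and 3.60 ± 1.21 FPKM in sensitive cells and fell by 2.10. It was tested because of its sensitive values alone. Of the noncoding RNAs beside liver factor genes, LINC00261, a neighbour of FOXA2, fell by 3.09 and MIR122HG, the host transcript of the liver microRNA miR-122, fell by 1.79, both with a direction fixed because only their sensitive values reached the filter. HNF4A-AS1 was listed at 0 in all resistant libraries and was below the filter. Whether counting used strand is not given in the sources used here, so reads of an antisense RNA and its partner may not be told apart.

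Textbook targets of the factors were low in resistant cells. Of 15 tested targets that are not themselves in the set, 14 were called lower, none higher and 1 did not pass. Of all tested genes 32.5% were called lower. In the files were 26 of 28 such targets. Among 9 tested HNF4A targets, of which 5 were tested because of their sensitive values alone, all were called lower, with a median of -5.52. SERPINA1 (alpha-1-antitrypsin) was at 13.2 ± 6.74 FPKM in resistant and 2252 ± 157 FPKM in sensitive cells, and the apolipoproteins APOB, APOA1 and APOA2 fell by 6.80, 6.79 and 6.28. All 6 tested FOXA targets were called lower (median -2.94, 4 of them through the sensitive libraries alone). They include IGFBP1, an insulin-regulated binding protein, at 20.3 ± 12.3 FPKM in resistant and 1497 ± 439 FPKM in sensitive cells. The 4 tested CEBPA targets were called lower, with 3 through the sensitive libraries alone. The urea cycle enzyme CPS1 was at 3.10 ± 0.735 FPKM in resistant and 115 ± 48.6 FPKM in sensitive cells, PCK1 of gluconeogenesis fell by 3.85, and TAT of tyrosine breakdown by 1.78. Albumin (ALB) fell by 2.03. It was low in sensitive cells as well, at 3.21 ± 1.06 FPKM. Of 4 tested ONECUT1 targets, HNF4A, FOXA2 and PCK1 were called lower and 1 gene did not pass. Genes can stand on more than 1 of these lists.

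**Figure D5:**
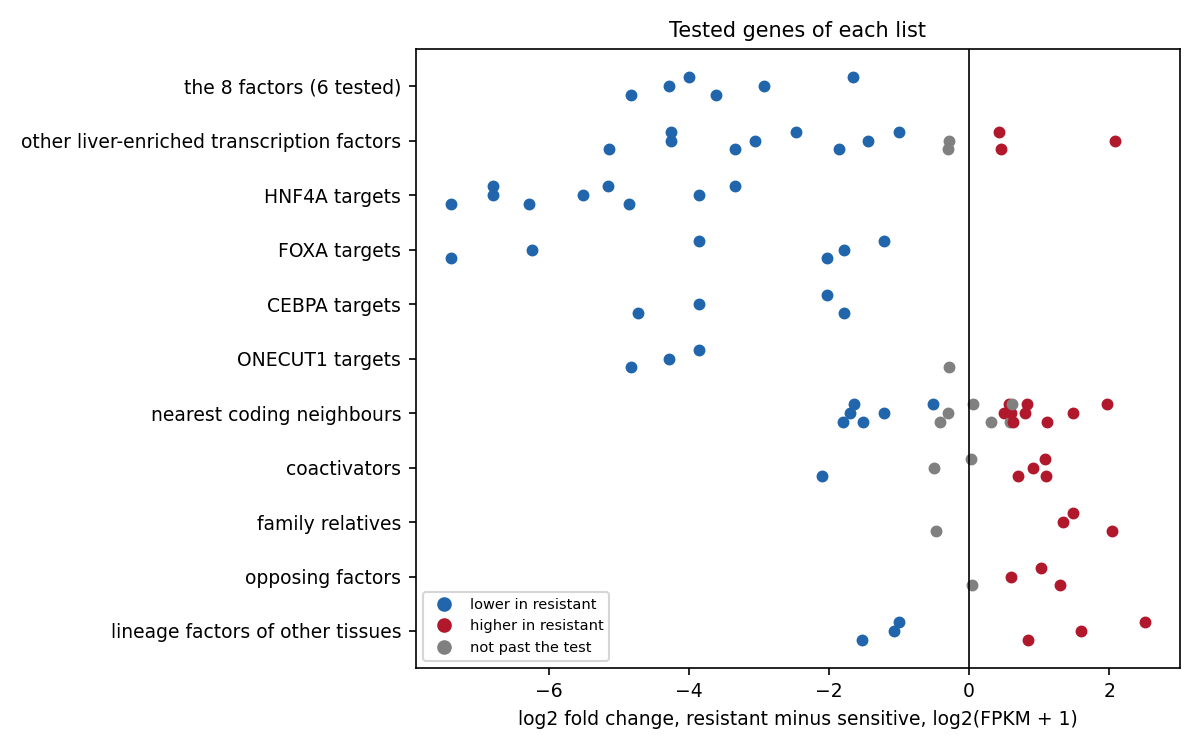
Log2 fold change of each tested gene, resistant minus sensitive, on log2(FPKM + 1), with 1 row per gene list and colour for the limma call. Points of the 6 tested factors and of the target lists lie below 0, whereas the nearest coding neighbours spread to each side of 0, from -1.80 to 1.97.

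The genes that flank the factors were called in either direction. For each factor the nearest 3 protein-coding genes on each side in RefSeq were followed, 48 in all, of which 41 were in the files and 21 were tested. Of these, 9 were called higher, 6 lower and 6 did not pass, where 35.2% and 32.5% of all tested genes were called higher and lower. The lower call of PEPD, beside CEBPA, was lost in 6 of 13 alternatives (adjusted p up to 0.104 in limma). The higher call of RSL24D1, beside ONECUT1, was lost in 1 of 13. Beside HNF4A on chromosome 20, 3 of 4 tested neighbours were called higher and none lower. TTPAL, next to it, was at 25.1 ± 0.863 FPKM in resistant and 5.89 ± 1.93 FPKM in sensitive cells and rose by 1.97. Beside CEBPA on chromosome 19, CEBPG rose while LRP3 fell by 1.51, to 3.71 ± 0.396 FPKM in resistant cells against 12.4 ± 1.24 FPKM in sensitive cells. Beside FOXA3, IRF2BP1 fell by 1.71, and beside ONECUT2 the phospholipid flippase gene ATP8B1 fell by 1.80. Beside ONECUT1 the gene ATOSA, listed as FAM214A, fell by 1.22, but it was tested because of its sensitive values alone, which fixed its direction. GDAP1, beside HNF4G, rose by 0.83. No neighbour of FOXA1 or FOXA2 was tested. NKX2-4, near FOXA2, was listed at 0 in each resistant library and averaged 1.06 ± 0.0848 FPKM in sensitive cells, and PAX9, near FOXA1, was at 0.951 ± 0.199 FPKM in resistant and 0.480 ± 0.0549 FPKM in sensitive cells.

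Factors known to oppose the hepatocyte program, or to mark other lineages, were examined for comparison. Of 4 tested opposing factors 3 were called higher and 1, SNAI1, did not pass, where 35.2% of all tested genes were called higher. TWIST2, below the filter, was at 0.0140 ± 0.0139 FPKM in resistant and 1.23 ± 0.579 FPKM in sensitive cells. MYC rose by 1.30, to 43.8 ± 1.82 FPKM in resistant cells against 17.3 ± 2.38 FPKM in sensitive cells. The zinc finger repressors ZEB2 and ZEB1 rose by 1.03 and 0.59. ZEB2 was at 1.22 ± 0.193 FPKM in resistant cells and passed the filter through them alone, and the call of ZEB1 was lost in 5 alternatives (adjusted p up to 0.0883 in limma). Of 6 tested lineage factors of other tissues 3 were called higher and 3 lower, but the 3 lower ones and 2 of the higher ones were tested because of a single group's values, which fixed their direction. PAX6, a factor of eye, brain and endocrine pancreas, was at 4.88, 4.70 and 4.55 FPKM in the resistant libraries, and in the sensitive libraries it was listed at 0 in replicates 1 and 3 and at 0.00375 FPKM in replicate 2. SOX9 of bile duct rose by 1.60, to 11.4 ± 0.379 FPKM against 3.24 ± 1.29 FPKM in sensitive cells. TCF21 was at 0.0254 ± 0.0320 FPKM in resistant and 1.97 ± 0.334 FPKM in sensitive cells, and CDX2 of intestine was listed at 0 in each resistant library and averaged 1.11 ± 0.0103 FPKM in sensitive cells.

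Cholangiocyte markers differed in direction. Their summed level was 119 to 136 FPKM in resistant and 29.4 to 35.1 FPKM in sensitive libraries. Most of the resistant sum was KRT7, at 106 ± 8.64 FPKM, against 0.498 ± 0.408 FPKM in sensitive cells. Of 3 tested markers, out of 6 in the files, KRT7, tested because of its resistant values alone, rose by 6.19 and SOX9 by 1.60 while EPCAM fell by 1.24. SPP1, below the filter, was at 0.00484 ± 0.00838 FPKM in resistant and 0.915 ± 0.287 FPKM in sensitive cells. KRT19 and CFTR, which define bile duct cells, were under 0.15 FPKM in every library. The summed leukocyte markers were 2.76 to 5.41 FPKM in resistant and 250 to 268 FPKM in sensitive libraries, nearly all of it lysozyme (LYZ), at 1.02 ± 1.08 and 242 ± 6.24 FPKM, and CD68 was at 3.00 ± 0.665 and 14.1 ± 3.53 FPKM in resistant and sensitive cells. Fibroblast markers summed to at most 0.236 FPKM in resistant and 1.76 FPKM in sensitive libraries, and endothelial markers to at most 0.348 FPKM in resistant and 0.185 FPKM in sensitive libraries. The part of such cells, if any, in the levels of the factors was not tested. Of 10 housekeeping genes 7 were called lower, 1 higher and 2 did not pass, with a median of -0.83, where 32.5% of all tested genes were called lower. PGK1, B2M and RPLP0 fell by 2.34, 1.36 and 0.96. On log2(FPKM + 1), which understates the change of genes at low values, PGK1 fell more than FOXA1 and less than the other 5 tested factors. By the ratio of sensitive to resistant means the order was opposite, with FOXA1 at 11.61 times and PGK1 at 5.145 times.

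Many genes shared the pattern of the set across the 6 libraries. On log2(FPKM + 1), 737 tested genes had a Pearson's r above 0.99 with HNF4A and 822 with FOXA3, where the 6 points fall into the separate groups and no p is given. Those nearest to HNF4A were the copper transporter ATP7B (r = 0.99997), PRICKLE2, ITPRIPL1, ROBO2 and CCDC8, and 4 of the 5 nearest to FOXA3 were the myosin gene MYO1E (r = 0.99994), CNNM1, TBL1X and SEMA4G. ATP7B was at 1.48 ± 0.0506 FPKM in resistant and 9.32 ± 1.02 FPKM in sensitive cells, and MYO1E at 5.99 ± 0.212 and 37.6 ± 2.00 FPKM.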

How the data were processed

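RNA of 3 resistant and 3 sensitive PLC/PRF/5 libraries was compared, with groups and replicate numbers from the sample titles. For each library the authors deposited a table of symbols and values, whose unit was read from the values as FPKM (RPKM would look the same). The submitters' processing notes name cutadapt and HISAT2; their versions, and the counter, build, annotation and strand, were not given in the sources used here. Per the labels' protocols, medium of resistant cells was changed every 48 h, cells were passaged at 90% confluence in 10% serum, and 1.5 µg of total RNA was used.

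limma 3.58.1 (limma-trend, R 4.3.3) was fitted to log2(FPKM + 1) over genes that reached 1 FPKM in 3 or more libraries, all 6 libraries in 1 fit with no block, with Benjamini-Hochberg adjustment and a threshold of 0.05. It had 4 residual and 2.75 prior degrees of freedom, and was checked on simulated data. Tables and figures were made in Python 3.11.15 (matplotlib 3.10.9, scipy 1.17.1, numpy 2.4.6, pandas 2.3.3). Low values gave the relative depth, as the commonest ratio between libraries over genes with a mean below 0.5 FPKM, and the steps of each factor within 0.03 of a whole number. Read counts were not tested.

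The members and gene lists were chosen with earlier results of these data known. Named genes are all members, the most changed called genes of each list (at most 4, or the 2 highest where fewer than 2 were called), the neighbour of each factor with the largest change and the 5 genes most correlated with HNF4A and with FOXA3. Some genes named by this rule are left out. Lists were described by counts and medians, with no test. Alternatives were other scalings, filters, pseudocount and variance model, a replicate block and each library left out.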

Additional observations from a re-analysis of the deposited data

How the results depend on the processing

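All 6 tested factors remained called lower under every alternative in which they were tested. For 5 of them, all but CEBPA, the direction was fixed by their sensitive values. Apart from the other filters, the alternatives kept the same tested genes, so this constancy is a description only. The largest adjusted p in limma was 6.29e-05 for HNF4A, 6.24e-05 for FOXA3, 7.47e-05 for FOXA2 and 0.000137 for CEBPA, each with the replicate block, and 0.00102 for FOXA1 and 0.000651 for ONECUT1 without resistant replicate 3. With a mean of at least 5 FPKM required, FOXA1 was no longer tested and 4973 of 7396 genes were called, against 7920 of 11694, since fewer genes were tested. A pseudocount of 0.1 gave -0.93 for HNF4G and -2.39 for ONECUT2, and -7.48 for HNF4A, -6.89 for FOXA2, -5.91 for FOXA3, -5.79 for ONECUT1 and -3.10 for FOXA1. The smaller pseudocount compresses low values less. With no filter, 8 factors were tested and 7 called lower, as were 21.7% of 22521 genes. Without 1 library each, the log2 difference of HNF4G ranged from -0.68 to -0.40 and that of ONECUT2 from -1.49 to -0.99.

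Same-numbered libraries did not deviate together. The correlation of their deviations from the group means was -0.422, 0.072 and -0.228 for numbers 1, 2 and 3. With the replicate number as a block, 7193 genes were called, and no call of a factor changed. The levels of HNF4A, FOXA2 and FOXA3 in resistant cells rest on 3 to 29 steps per library.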
